A study of Homo sapiens with 9 samples.

Results

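The genes described here were 140 of 11886 genes measured in MDA-MB-231 cells, a human triple-negative breast cancer line, that were lower after overexpression of the nuclear receptor TLX and stayed at nearly the same level when an siRNA against TLX was added. Members were chosen on the deposited log2 CPM values (log2 of read counts scaled to library size) by 3 limits on group means: a mean over the 9 libraries of at least 1, a TLX+siCTL mean at least 1 log2 unit under the CTL+siCTL mean, and an absolute difference between TLX+siTLX and TLX+siCTL under 0.25. A symbol with several rows was represented by its row of highest mean. Of the 514 genes that were at least 1 log2 unit lower in TLX+siCTL, the 140 members made up 27.2%, while 286 (55.6%) were 0.25 or more higher with the siRNA against TLX and 88 (17.1%) were 0.25 or more lower. Among all 11886 genes, 56.8% lay within 0.25 of their TLX+siCTL level. Because all 3 group means entered the choice, every difference between groups below is a description of the chosen genes and carries no test of the choice.

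The 9 RNA-seq libraries formed 3 groups of 3. CTL+siCTL (libraries S1 to S3 as numbered in the deposited table) were MDA-MB-231 control cells given a universal negative control siRNA, TLX+siCTL (S4 to S6) were TLX-overexpressing MDA-MB-231 cells given the same control siRNA, and TLX+siTLX (S7 to S9) were TLX-overexpressing cells given a TLX-targeting siRNA, each transfected for 48 h. How TLX was overexpressed, whether the overexpressing cells were a pool or 1 clone, and whether replicates were separate cultures is stated by none of the sources used here, so errors measure the spread between these libraries, which may be technical. TLX overexpression is a property of both TLX groups, and the TLX+siCTL libraries enter both the comparison with control cells and the comparison with the siRNA against TLX, so those differences share samples.

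TLX, encoded by NR2E1, is an orphan nuclear receptor known for keeping neural stem cells undifferentiated; it binds DNA at the core letters AAGTCA and acts mainly as a repressor by recruiting corepressors and histone-modifying enzymes. An siRNA is a short RNA duplex whose guide strand directs cleavage of a matching mRNA, so it lowers the transcript without touching the gene. Genes that a transcription factor changes can be its direct targets or lie further downstream, and mRNA levels alone do not separate these.

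NR2E1 itself stood at -4.59, -4.28 and -4.50 log2 CPM in the control libraries, near the table's lowest value of -5.33. It reached 0.28, -0.84 and 0.23 in TLX+siCTL and was at -2.61, -3.40 and -1.77 in TLX+siTLX. The siRNA libraries thus lay wholly between the other groups, below the overexpressing cells with control siRNA and above the control cells. Effective library sizes were 73.9 to 91.8 M reads, and the lowest rebuilt count of any member in any library was 40.1 reads, for AL139011.2 in S5. All 8 markers of the line (among them VIM, CD44, EGFR and AXL) averaged 1 log2 CPM or more, while 0 of 4 immune markers and 2 of 9 prostate markers did. PC3, the name of a prostate line, also stands in the control samples' titles, and no label says why. The summed prostate markers differed little between the groups, at 5.32 to 5.41 in CTL+siCTL, 5.32 to 5.41 in TLX+siCTL and 5.41 to 5.48 in TLX+siTLX. Of 10 luminal breast markers 5 had a mean of at least 1. The summed level of the 10 (log2 of summed CPM) was 10.1 in every control library, 9.14 to 9.26 in TLX+siCTL and 9.36 in TLX+siTLX. Of the 5, SPDEF, KRT19, AGR2 and XBP1 were lower in TLX+siCTL than in control cells by group mean. GATA3 went the other way, with group means of 2.37, 3.30 and 4.24 in the same order, and ESR1 had -2.39, -2.58 and -2.31. The summed markers of the line were at 12.09 to 12.13 in CTL+siCTL, 12.26 to 12.31 in TLX+siCTL and 12.63 to 12.71 in TLX+siTLX. The summed fibroblast markers, of which 1 of 6 (COL1A1) had a mean of at least 1, were at 3.25 to 3.32, 2.11 to 2.48 and 3.12 to 3.50. The part of these shifts in the members' differences was not tested. In bulk RNA, fewer cells of a type and less RNA per cell cannot be told apart.

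TRIML2, which marks the set and had its lowest TLX+siCTL minus CTL+siCTL difference, encodes a relative of the tripartite motif (TRIM) ubiquitin ligases and lies at chr4:188091273-188109603 on the minus strand (GRCh38, GENCODE 29). Its promoter and those of 5 other members are shown because these genes lead their groups below or hold the letters searched for the regulators named there. The sequences are the 250 bases before the RefSeq start of transcription nearest to the GENCODE start (GRCh38.p14), written 5′ to 3′ on the gene's own strand. The MX1 window lies wholly inside the gene as annotated in GENCODE 29 (chr21:41420304-41459214). The windows of ANXA10, AREG, GJA1 and HERC5 run past the GENCODE start. The marked letters of GJA1 and the nearer ANXA10 match lie beyond that start. Capitals mark GGGCGG, the SP1 letters, in TRIML2 (chr4:188109604-188109853, minus strand), the TLX core letters AAGTCA in ANXA10 (chr4:168092287-168092536, plus strand) and MX1 (chr21:41420308-41420557, plus strand; 1 of its matches is on the opposite strand), the cyclic AMP response element TGACGTCA in AREG (chr4:74444886-74445135, plus strand), the AP-1 site TGAGTCA in GJA1 (chr6:121435396-121435645, plus strand), and the interferon response letters, GAAA and GAAA with 2 bases of any kind between, in HERC5 (chr4:88456869-88457118, plus strand), where all 3 matches are on the opposite strand and the first overlaps the second. HERC5 also holds 1 AAGTCA, left in lower case; capitals mark only the letters named for each gene.
TRIML2: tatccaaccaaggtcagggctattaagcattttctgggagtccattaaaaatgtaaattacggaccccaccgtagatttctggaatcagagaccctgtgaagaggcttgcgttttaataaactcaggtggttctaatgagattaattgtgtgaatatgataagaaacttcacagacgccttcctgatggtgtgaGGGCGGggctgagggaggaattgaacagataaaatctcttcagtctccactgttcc
ANXA10: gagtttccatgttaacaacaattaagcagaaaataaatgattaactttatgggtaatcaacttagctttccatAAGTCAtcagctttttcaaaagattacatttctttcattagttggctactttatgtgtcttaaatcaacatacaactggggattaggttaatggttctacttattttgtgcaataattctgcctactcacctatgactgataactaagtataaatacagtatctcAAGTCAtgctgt
AREG: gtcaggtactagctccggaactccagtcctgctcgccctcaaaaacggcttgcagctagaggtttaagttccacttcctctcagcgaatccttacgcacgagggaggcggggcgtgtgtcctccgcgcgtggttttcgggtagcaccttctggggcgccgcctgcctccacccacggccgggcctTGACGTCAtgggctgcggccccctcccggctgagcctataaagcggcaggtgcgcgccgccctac
GJA1: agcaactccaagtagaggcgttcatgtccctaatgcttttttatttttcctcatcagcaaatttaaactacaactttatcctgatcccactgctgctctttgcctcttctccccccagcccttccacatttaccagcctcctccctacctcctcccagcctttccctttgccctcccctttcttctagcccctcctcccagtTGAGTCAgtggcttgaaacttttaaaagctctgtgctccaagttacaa
MX1: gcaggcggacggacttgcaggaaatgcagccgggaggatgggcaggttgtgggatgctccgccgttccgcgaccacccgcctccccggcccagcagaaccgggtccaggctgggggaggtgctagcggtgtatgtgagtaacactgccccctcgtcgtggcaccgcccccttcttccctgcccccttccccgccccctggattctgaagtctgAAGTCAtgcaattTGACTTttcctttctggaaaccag
HERC5: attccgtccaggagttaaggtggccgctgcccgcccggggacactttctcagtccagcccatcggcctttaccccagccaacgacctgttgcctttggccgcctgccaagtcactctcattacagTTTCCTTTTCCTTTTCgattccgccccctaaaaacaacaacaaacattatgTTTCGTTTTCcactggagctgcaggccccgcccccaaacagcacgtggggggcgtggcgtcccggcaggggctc
The marked letters end 51 bases before the RefSeq start in TRIML2, 7 bases before it in the nearer ANXA10 match, 58 in AREG, 42 in GJA1, 19 in the nearer MX1 match and 65 in the nearest HERC5 match. TRIML2 held none of the other 9 letter patterns searched in this window, which says only that those letters are not in these 250 bases. Over all 35116 promoters of the table, on both strands, 42.6% held GGGCGG, 10.9% AAGTCA, 4.20% TGAGTCA, 3.02% the interferon response letters and 1.65% TGACGTCA. Over the 9356 promoters of measured genes the shares were, in the same order, 69.2%, 6.6%, 2.28%, 2.38% and 2.96%. Only 99 of the 140 members had a promoter in the table, so a comparison of these shares between members and other genes is void and is not made; AAGTCA was present in 10 of those 99. A match is a description of the letters and shows no binding.

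Of the 140 members, 139 were lower in TLX+siCTL than in CTL+siCTL by limma at an adjusted p under 0.05 (the exception was AL139011.2), where 15.1% of all 27548 rows and 27.9% of the 11886 genes were called lower. The same 139 were lower in TLX+siTLX than in CTL+siCTL, where 17% of all rows and 31.7% of the genes were called lower. In all 140 members every TLX+siCTL library and every TLX+siTLX library lay below every control library, as did 35.4% and 35.5% of the 11886 genes. These counts follow from the limits of the choice. Centring library medians over all rows moves every row by the same amount, 0.12 in TLX+siCTL against CTL+siCTL and -0.14 in TLX+siTLX against TLX+siCTL. Calls in the first contrast then went from 4142 higher and 4162 lower to 5578 and 3015, and in the second from 3507 and 3011 to 2253 and 5273. The median difference from control was -1.38 in TLX+siCTL (range -3.33 to -1.003) and -1.40 in TLX+siTLX (range -3.42 to -0.79); over the 11886 genes the medians were 0.01 and 0.00. A total of 16 members were at least 4-fold lower in TLX+siCTL, 41 lay between -2 and -1.5, and 83 lay above -1.5.

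A level unchanged by the siRNA holds for these genes only within the limit set. The median difference TLX+siTLX minus TLX+siCTL was -0.01, with 68 members above 0 and 72 below, and 53 members lay within 0.1. By limma 6 of the 140 were called in this contrast, against 23.7% of all rows and 46.7% of the 11886 genes: BHLHE40, AKR1C1 and TGFB1I1 were higher with the siRNA, and 3, CSGALNACT2 and MSL3P1 among them, were lower. An unadjusted p under 0.05 was found for 21. In this contrast 5 members had a false discovery rate under 0.05 in the authors' deposited table, and 139 did in each contrast with control cells. RND3 was among those 5 but not among the 6 called here, while TGFB1I1 and MSL3P1 were among the 6 but not the 5. The number called was 1 without an intensity trend and 24, all lower, with library medians centred over all rows; it was 3 without S1, S2, S4 or S5 and 10 without S9. BHLHE40 was called without each library in turn, MSL3P1 in 7 of the 9 (not without S4 or S6), AKR1C1 in 3, CSGALNACT2 in 2 and TGFB1I1 in 1. TLX+siTLX and TLX+siCTL libraries overlapped in 121 members and did not in 19 (10 higher, 9 lower with the siRNA), against 59% of the 11886 genes without overlap.

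A p above the threshold does not show that a gene did not differ. The 95% interval of TLX+siTLX minus TLX+siCTL reached a median of 0.229 log2 units to either side, from 0.0839 to 1.41 (AL139011.2). It lay wholly within 0.25 for 22 members, within 0.5 for 116, within 0.75 for 135 and within 1 for 139, and it held 0 for 119. For 118 members the interval reached past the 0.25 limit.

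**Figure D1:**
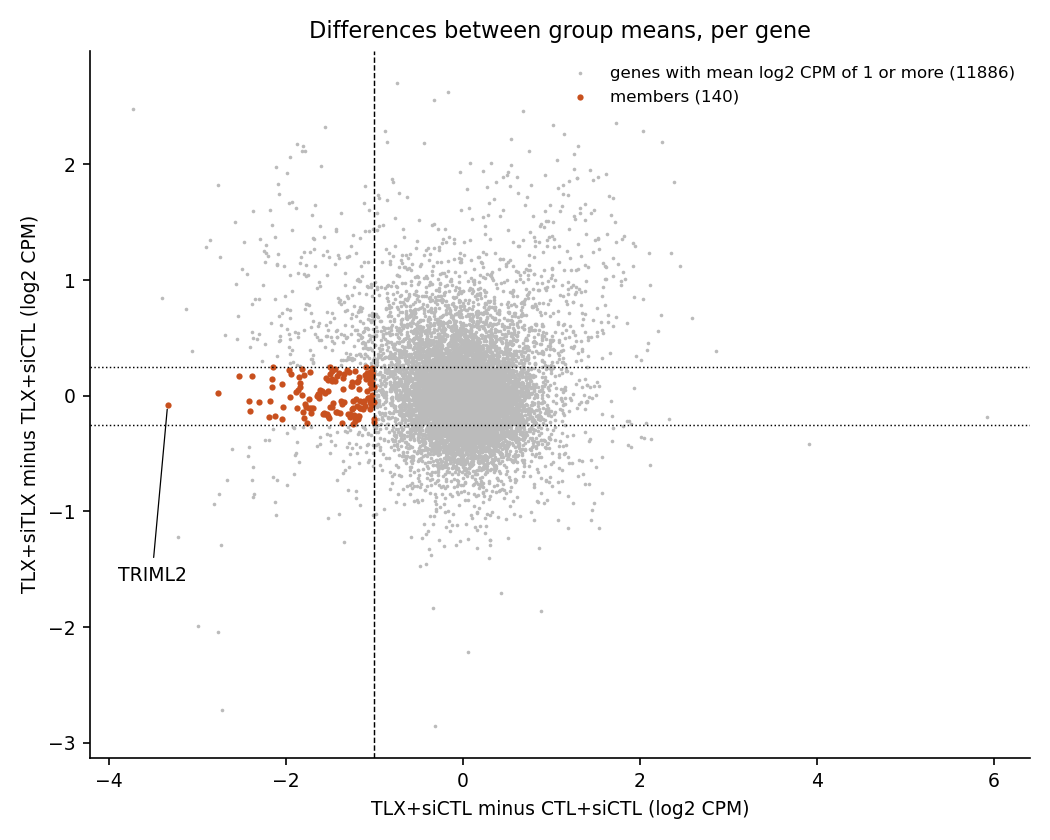
Difference between group means for each of the 11886 genes averaging 1 log2 CPM or more: x axis, TLX+siCTL minus CTL+siCTL; y axis, TLX+siTLX minus TLX+siCTL (both log2 CPM). The 140 members (orange) fill the band left of -1 (dashed) and between -0.25 and 0.25 (dotted), with TRIML2 at -3.33 farthest left among them; grey points above the band are falls that were higher with the siRNA.

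TRIML2 stood at 5.05, 5.06 and 5.08 log2 CPM in the control libraries, at 1.96, 1.78 and 1.45 in TLX+siCTL and at 1.64, 1.66 and 1.64 in TLX+siTLX. It was 10.1-fold lower in TLX+siCTL, a difference of -3.33 ± 0.115 log2 units, where ± here and below gives the moderated standard error of the fit over all 9 libraries (3 in each group). Where a gene is given a pair of differences, the first is from control cells (TLX+siCTL minus CTL+siCTL) and the second is with the siRNA (TLX+siTLX minus TLX+siCTL). The siRNA libraries spanned 0.0159 log2 units and lay inside the range of the TLX+siCTL libraries, with a difference of -0.08 ± 0.115 and a 95% interval from -0.34 to 0.18. For these contrasts the signed fold changes in the authors' deposited table were -10.08 and -1.065. Of 42 measured genes with TRIM family symbols, TRIML2 was the only one at least 1 log2 unit lower in TLX+siCTL, against 514 of the 11886 genes. Of the 42, 14 were called lower and 12 higher, with a median of -0.02, where 27.9% of the 11886 genes were called lower and 29.6% higher. In the shorter list of TRIML2 and TRIM family relatives (15 measured), 10 were called lower and 2 higher, with a median of -0.27.

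**Figure D2:**
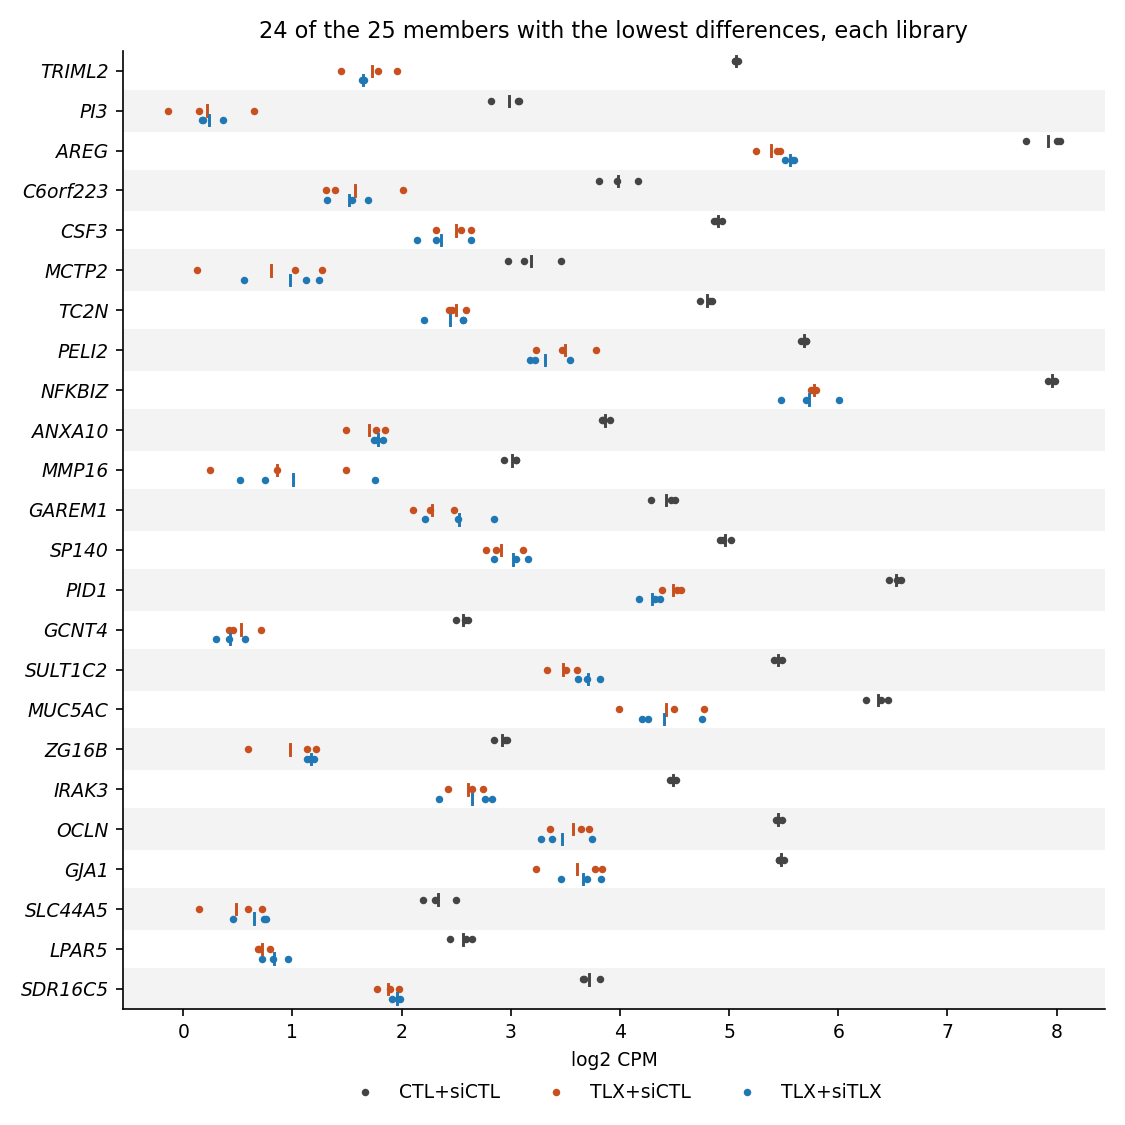
Log2 CPM of each library (points) and group mean (vertical bar) for 24 of the 25 members with the lowest TLX+siCTL minus CTL+siCTL difference, in that order from the top; grey, CTL+siCTL; orange, TLX+siCTL; blue, TLX+siTLX. In every row the control libraries stand to the right of the other 6, and the orange and blue points mostly intermingle.

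Secreted ligands and mucosal proteins, 7 members, had the lowest median difference from control of the 10 roles, which were assigned by hand after the members were known: -2.13, with a siRNA median of -0.01. AREG encodes amphiregulin, a ligand of the epidermal growth factor receptor, and measured 8.03, 8.0 and 7.72 in control cells, 5.47, 5.44 and 5.25 in TLX+siCTL and 5.59, 5.51 and 5.58 with the siRNA against TLX. It was 5.78-fold lower (-2.53 ± 0.0879), and the siRNA difference was 0.17 ± 0.0879. All 3 siRNA libraries were above all 3 TLX+siCTL libraries, by a margin small against the distance to the controls. PI3 encodes elafin, an inhibitor of neutrophil elastase; its values were 3.07, 3.07 and 2.82 in control cells, 0.65, 0.14 and -0.14 in TLX+siCTL, with 0.18, 0.37 and 0.17 in TLX+siTLX. The TLX+siCTL libraries of PI3 were spread over 0.794 log2 units and enclosed the siRNA libraries, with differences of -2.77 ± 0.199 from control and 0.02 ± 0.199 with the siRNA.

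CSF3, the granulocyte colony-stimulating factor, was at 4.87, 4.94 and 4.88 in the controls, 2.54, 2.64 and 2.31 in TLX+siCTL and 2.31, 2.64 and 2.15 with the siRNA against TLX. The TLX groups overlapped, and the difference from control was -2.40 ± 0.128. IGFBP1, a binding protein for insulin-like growth factors, differed by -1.80 ± 0.0718 and -0.14 ± 0.0718. The gel-forming mucin MUC5AC (-1.95 ± 0.201) and the secretory protein ZG16B (-1.94 ± 0.158) each have a pair of rows with identical values, so their reads may be split and their levels are uncertain. In the list of growth factors and receptor kinases AREG was 1 of 8 falls among 36 measured genes; 5 of the others were 0.25 or more higher and 2 lower with the siRNA. The list's medians were -0.31 from control and 0.33 with the siRNA. For 34 cytokines, chemokines and their receptors the count was 14 falls, of which CSF3 and IL1R1 were members, 7 were higher and 5 lower with the siRNA. Over all 11886 genes the falls numbered 514.

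Interleukin-1 and Toll-like receptors signal through IRAK kinases and Pellino ligases to NF-kB, which then induces its own regulators. From receptor to target, 6 members were assigned to this chain or to NF-kB, with a median difference of -1.57 from control and -0.08 with the siRNA. IL1R1, the interleukin-1 receptor, stood at 6.38, 6.38 and 6.48 in control cells, 5.26, 5.17 and 5.11 in TLX+siCTL and 5.10, 4.99 and 4.70 with the siRNA against TLX. All siRNA libraries of IL1R1 lay below all TLX+siCTL libraries, and its difference of -0.25 ± 0.0944 was the member value closest to the lower limit. IRAK3, a kinase-dead inhibitor of the pathway, was at 4.49, 4.46 and 4.51 in control cells, at 2.75, 2.65 and 2.43 in TLX+siCTL and at 2.83, 2.76 and 2.34 in TLX+siTLX. Its TLX groups overlapped (-1.88 ± 0.131 from control, 0.03 ± 0.131 with the siRNA). PELI2, a Pellino ubiquitin ligase, measured 5.71, 5.66 and 5.70 in the controls, 3.47, 3.78 and 3.24 in TLX+siCTL, with 3.18, 3.55 and 3.22 in TLX+siTLX.

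At the nuclear end, NFKBIZ encodes the atypical inhibitor IkB-zeta, a coactivator of secondary NF-kB targets. It stood at 7.99, 7.96 and 7.93 in control cells, 5.78, 5.80 and 5.75 in TLX+siCTL and 6.01, 5.71 and 5.48 with the siRNA against TLX, a difference of -2.18 ± 0.109. The TLX+siCTL libraries of NFKBIZ spanned 0.0478 log2 units, and the siRNA libraries spanned 0.529 around them. SOD2, the mitochondrial superoxide dismutase and a common NF-kB target, had the highest log2 CPM of the members (not corrected for gene length): 11.03, 11.06 and 11.11 in control cells, 10.15, 9.97 and 10.05 in TLX+siCTL and 10.19, 10.06 and 9.76. Its difference was -1.01 ± 0.102, just inside the limit, and its S9 value was the lowest of the 9. Among 26 measured NF-kB feedback and inflammatory genes there were 9 falls, against 514 among the 11886 genes. The 9 were PI3, NFKBIZ and SOD2 as members, 4 that were higher and 2 lower with the siRNA. By limma 20 of the 26 were called lower and 3 higher in TLX+siCTL, against 27.9% and 29.6% of the 11886 genes.

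Interferons act through receptor-bound Janus kinases and STAT and IRF factors to induce antiviral effectors, and members were found at each level. The 8 members of this chain had a median difference of -1.42 from control and 0.02 with the siRNA. IFNLR1, a chain of the interferon lambda receptor, was at 4.09, 3.95 and 4.18 in control cells, 2.69, 2.53 and 2.70 in TLX+siCTL, with 2.74, 2.65 and 2.11 in TLX+siTLX. JAK2, the kinase, stood at 4.41, 4.44 and 4.29 in control cells, 3.15, 3.10 and 3.06 in TLX+siCTL and 3.45, 2.85 and 2.53 with the siRNA against TLX. In both genes S9 was the lowest library, and the siRNA libraries of JAK2 spanned 0.914 log2 units around the TLX+siCTL values. IRF7, the factor that amplifies the response, differed by -1.16 ± 0.105 and -0.11 ± 0.105, but the row chosen lies outside the primary annotation, and a further row of IRF7 at a mean of -2.15 differed by -0.997 and -0.20. Reads may be split between these rows, so the level of IRF7 is uncertain.

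Of the effectors, OASL, an oligoadenylate synthetase-like protein, measured 7.36, 7.40 and 7.35 in control cells, 5.58, 5.70 and 5.50 in TLX+siCTL and 5.58, 5.53 and 5.46 with the siRNA against TLX. It was 3.43-fold lower, and its siRNA interval was narrow, from -0.19 to 0.05. MX1, an antiviral dynamin-like GTPase at chr21:41420304-41459214, measured 5.81, 5.57 and 5.49 in the controls, 4.20, 4.13 and 4.02 in TLX+siCTL, with 4.36, 4.29 and 4.26 in TLX+siTLX. The siRNA libraries of MX1 lay just above all TLX+siCTL libraries and more than 1 log2 unit below all controls. HERC5, the ligase that attaches ISG15 to proteins, was at 7.69, 7.67 and 7.70 in control cells, 6.34, 6.26 and 6.26 in TLX+siCTL and 6.69, 6.45 and 6.31 with the siRNA against TLX. Its siRNA difference was 0.20 ± 0.0838 with an interval from 0.01 to 0.39. RSAD2 (viperin) differed by -1.08 ± 0.114 and 0.20 ± 0.114, and SP140, a nuclear body protein, by -2.04 ± 0.103 and 0.10 ± 0.103.

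The interferon list shows how the limit divides a pathway. Of 43 measured interferon-stimulated genes, 34 were called lower and 3 higher in TLX+siCTL (list median -0.82), and 24 were called higher and 2 lower with the siRNA (list median 0.36), against medians of 0.01 and 0.00 over the 11886 genes. Over those genes 27.9% were called lower and 29.6% higher in the first contrast, and 24.3% higher and 22.5% lower with the siRNA. There were 18 falls, against 514 among the 11886 genes. The 18 were 5 members (OASL, MX1, HERC5, IRF7 and RSAD2), 11 that were 0.25 or more higher with the siRNA, and 2 that were lower. DDX60, a helicase and no member, had group means of 6.51, 5.30 and 6.53, while those of OASL were 7.37, 5.59 and 5.52. IFIT1, with 8.09, 6.14 and 6.50, lay between them, and IFIT2 had 9.25, 7.38 and 6.98. MX1, HERC5 and RSAD2, with siRNA differences of 0.19, 0.20 and 0.20, were next to IFIH1 (0.28 ± 0.0646), which is outside the limit.

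**Figure D3:**
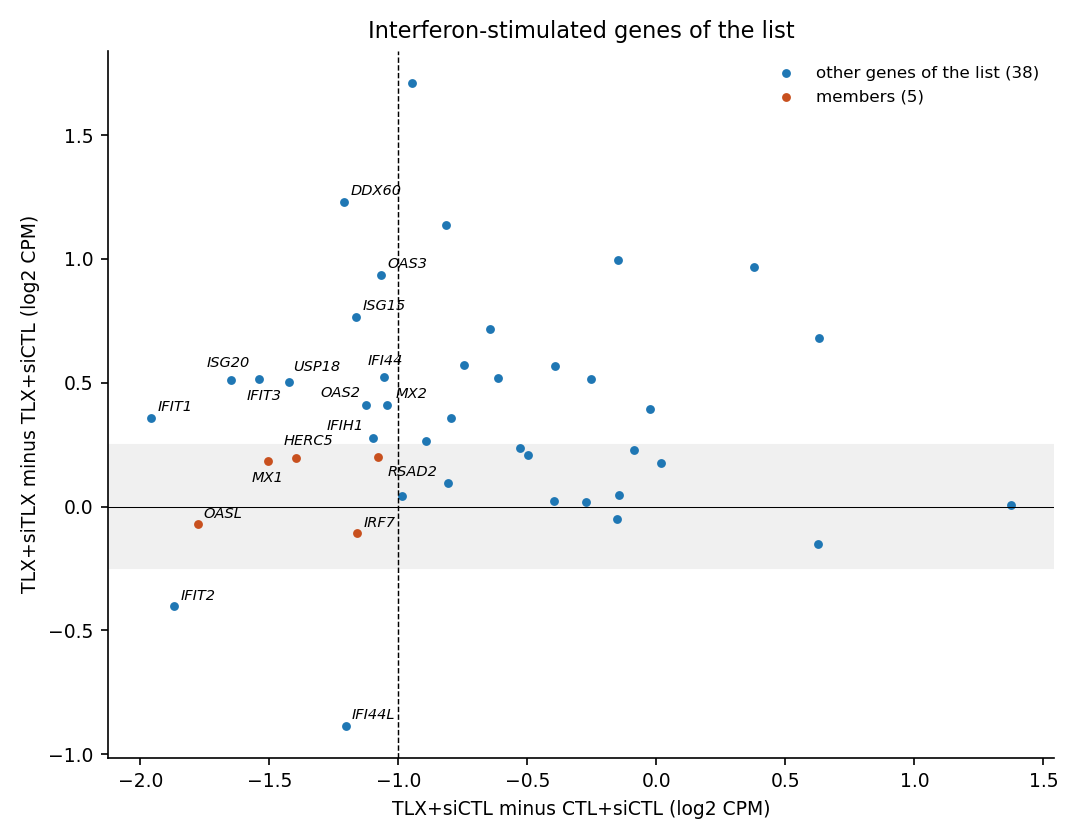
Interferon-stimulated genes of the list: x axis, TLX+siCTL minus CTL+siCTL; y axis, TLX+siTLX minus TLX+siCTL (log2 CPM); members in orange, the other 38 genes in blue, grey band within 0.25 of 0, dashed line at -1. The 5 members form the lower middle of a cloud that reaches from IFI44L at -0.89 to OAS1 (unlabelled) at 1.71 on the y axis.

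Junction, polarity, adhesion and matrix genes, 19 members, had a median of -1.45 from control and 0.01 with the siRNA. OCLN encodes occludin, a tight junction protein, and stood at 5.45, 5.43 and 5.48 in control cells, 3.64, 3.36 and 3.71 in TLX+siCTL and 3.38, 3.27 and 3.75 with the siRNA against TLX. Its TLX groups overlapped; a further row of OCLN differed by -1.82 and -0.26, so reads may be split between the rows. GJA1, the gap junction protein connexin 43, was at 5.46, 5.46 and 5.51 in control cells, 3.83, 3.77 and 3.23 in TLX+siCTL and 3.70, 3.82 and 3.46 with the siRNA against TLX, with S6 its lowest library. The difference of GJA1 was -1.86 ± 0.154 from control and 0.05 ± 0.154 with the siRNA. The polarity protein LLGL2 differed by -1.39 ± 0.0674 and the epithelial clathrin adaptor AP1M2 by -1.03 ± 0.0943.

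The laminin alpha-4 chain LAMA4 was at 2.58, 2.47 and 2.58 in control cells, 0.44, 1.10 and 1.19 in TLX+siCTL and 1.23, 0.96 and 0.58 with the siRNA against TLX, with S4 far below S5 and S6. ITGA1, the collagen receptor subunit alpha-1, differed by -1.26 ± 0.0555 and 0.08 ± 0.0555, and overlaps PELO on the same strand. PCDH9, a protocadherin, differed by -1.74 ± 0.155. The membrane metalloproteinase MMP16 had wide spread in both TLX groups, 0.85, 1.49 and 0.24 in TLX+siCTL and 0.52, 1.75 and 0.75 with the siRNA against TLX, against 3.05, 3.05 and 2.94 in the controls. ADAM32 (1.80, 1.97 and 2.23 in control cells, 1.63, 0.89 and 0.48 in TLX+siCTL and 1.34, 0.72 and 0.35 with the siRNA against TLX) was the member nearest to the -1 limit, and a further row of its symbol moved the other way, by 1.20, so ADAM32 is uncertain. KRT86 (-1.61 ± 0.141) overlaps KRT7 on its own strand and KRT81 on the other, and resembles other hair keratins, so its reads are uncertain too.

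TGFB1I1 (Hic-5), a focal adhesion adaptor, was called higher with the siRNA: 5.87, 5.78 and 5.84 in control cells, 4.75, 4.82 and 4.86 in TLX+siCTL, with 4.89, 5.01 and 5.04 in TLX+siTLX. The siRNA libraries of TGFB1I1 lay just above the TLX+siCTL libraries (0.17 ± 0.0518) and far below the controls. The related LIM protein LPXN (leupaxin) differed by -1.79 ± 0.101 and -0.19 ± 0.101, and FBLIM1 by -1.42 ± 0.0836 and 0.17 ± 0.0836. FNDC3B, ANTXR2, VSIG1, IGDCC4 and the proteoglycan GPC6 differed by -1.09, -1.02, -1.18, -1.77 and -1.44 from control. Epithelial genes of the list numbered 25 measured, with 10 falls, against 514 among the 11886 genes. The 10 were the members OCLN, KRT86 and AP1M2, and 7 that were higher with the siRNA. In that list 19 genes were called higher with the siRNA by limma, against 24.3% of the 11886 genes. Mesenchymal and matrix genes had 11 falls among 28: 3 members, LAMA4 and the repressor ZEB2 among them, and 8 higher with the siRNA. Of these 28 genes, 22 were called higher and 1 lower with the siRNA. The siRNA medians were 0.75 in the mesenchymal list and 0.50 in the epithelial list. In TLX+siCTL against control cells, 18 mesenchymal genes were called lower and 7 higher, and 20 epithelial genes lower and 2 higher. The shares over the 11886 genes were 27.9% lower and 29.6% higher. Beside these groups, the summed luminal markers were lower in TLX+siCTL and TLX+siTLX than in the controls, while GATA3 of them was higher, as given above.

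**Figure D4:**
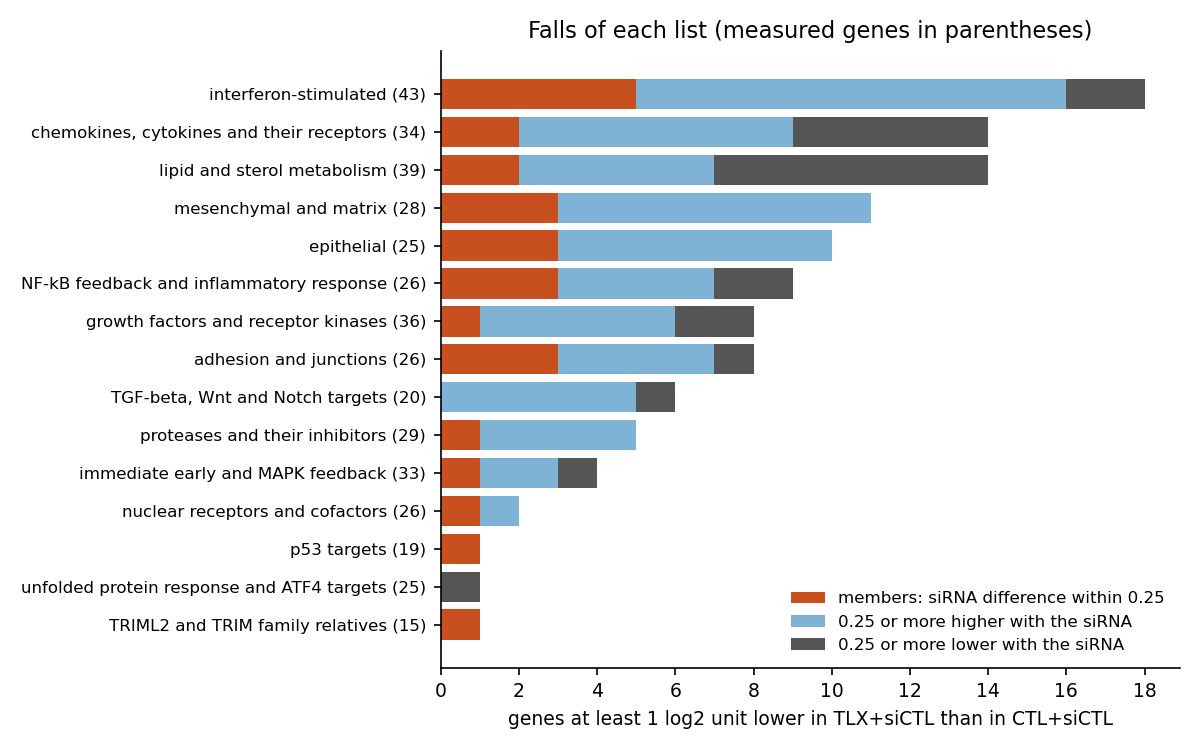
Number of genes at least 1 log2 unit lower in TLX+siCTL than in CTL+siCTL in each list with any (measured genes in parentheses), split into members (orange) and genes 0.25 or more higher (blue) or lower (dark grey) with the siRNA against TLX. Interferon-stimulated genes had 18 falls with 5 members. The unfolded protein response list had 1 fall and the TGF-beta, Wnt and Notch list 6, with no member. Of all 514 falls among the 11886 genes, 27.2% were members.

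Receptors with 7 membrane spans were represented by 3 members. F2RL1 encodes PAR2, the receptor that trypsin-like proteases cleave, and measured 8.89, 8.88 and 8.81 in control cells, 7.27, 7.31 and 7.06 in TLX+siCTL and 7.14, 7.27 and 7.21 with the siRNA against TLX. The means of the TLX groups were equal to 2 decimals, the libraries overlapped, and the 95% interval of the difference ran from -0.16 to 0.15. LPAR5, a lysophosphatidic acid receptor, was at 2.45, 2.65 and 2.59 in control cells, 0.70, 0.79 and 0.68 in TLX+siCTL and 0.72, 0.96 and 0.82 with the siRNA against TLX. GPRC5C, an orphan receptor, differed by -1.80 ± 0.115 and 0.18 ± 0.115. Of 53 measured genes with such receptor symbols 8 were falls, against 514 of the 11886 genes. The 5 of these 8 that were not members were higher with the siRNA.

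Adaptors, kinases and small GTPases gave 12 members, with a median of -1.42 from control and -0.01 with the siRNA. GAB2, a docking protein downstream of receptor kinases, stood at 7.59, 7.52 and 7.50 in control cells, 5.67, 5.78 and 5.88 in TLX+siCTL, with 5.74, 5.54 and 5.35 in TLX+siTLX. GAB2 was close to the lower limit (-0.23 ± 0.0923), whereas GAREM1, an adaptor of the epidermal growth factor receptor, was close to the upper limit: 4.51, 4.29 and 4.47 in control cells, 2.26, 2.48 and 2.10 in TLX+siCTL and 2.52, 2.85 and 2.21 with the siRNA against TLX, with 0.25 ± 0.161. Both had overlapping TLX groups. RND3, an atypical small GTPase that opposes ROCK1, measured 9.55, 9.53 and 9.30 in control cells, 8.07, 8.17 and 8.06 in TLX+siCTL and 7.91, 7.93 and 7.75 with the siRNA against TLX. All siRNA libraries of RND3 were below all TLX+siCTL libraries (-0.24 ± 0.0754). PID1, a phosphotyrosine-binding adaptor linked to insulin signalling, differed by -2.04 ± 0.0644 and -0.20 ± 0.0644, also without overlap. The kinase MAP4K3 was 0.22 ± 0.0732 with the siRNA, and the phosphatase DUSP16, which acts on MAP kinases, -0.09 ± 0.115. DUSP16 and PRKAR2B, a regulatory subunit of protein kinase A, each have a pair of identical rows. RASSF8 varied most among the siRNA libraries of this group, 5.39, 5.05 and 4.38 in S7 to S9. CNKSR1, RHEBL1, NGEF and CYFIP2 differed by -1.05, -1.47, -1.0 and -1.53 from control.

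Transcription factors and cofactors, 17 members, had the least negative median of the roles, -1.24, and a siRNA median of 0.07. Nuclear receptors other than TLX were among them. RARG, the retinoic acid receptor gamma, stood at 6.09, 6.11 and 6.19 in control cells, 4.92, 4.97 and 4.78 in TLX+siCTL, with 4.79, 4.87 and 4.87 in TLX+siTLX. NR3C2, the mineralocorticoid receptor, measured 5.97, 5.98 and 5.90 in control cells, 4.60, 4.48 and 4.52 in TLX+siCTL and 4.39, 4.57 and 4.22 with the siRNA against TLX. In both genes the TLX groups overlapped, and the siRNA interval of RARG ran from -0.17 to 0.08. HNF4G differed by -1.71 ± 0.173, and the nuclear receptor corepressor NRIP1 by -1.34 ± 0.0943.

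BHLHE40 (DEC1), a repressor in the circadian and hypoxia responses, measured 8.16, 8.20 and 8.10 in control cells, 7.06, 7.09 and 7.04 in TLX+siCTL and 7.27, 7.34 and 7.32 with the siRNA against TLX. It had the highest siRNA difference of the members, 0.25 ± 0.0368, without overlap, and the siRNA libraries stood above every TLX+siCTL library and below every control library. FOS, the immediate early subunit of AP-1, was at 3.54, 3.51 and 3.46 in control cells, 1.79, 2.06 and 1.98 in TLX+siCTL and 1.94, 1.74 and 1.67 with the siRNA against TLX. It was the member among 4 falls of the 33 immediate early and MAPK feedback genes, against 514 falls of the 11886 genes. Of the 33, 20 were called lower and 4 higher in TLX+siCTL, against 27.9% and 29.6% of the 11886 genes. NAB2, which holds EGR factors in check, differed by -1.17 ± 0.0931 and -0.18 ± 0.0931. ZEB2, a repressor of epithelial genes, measured 6.03, 5.99 and 6.01 in controls, 5.0, 4.96 and 4.96 in TLX+siCTL, with 5.19, 5.02 and 4.91 in TLX+siTLX, so its TLX groups overlapped. FOXP1 (-1.21 ± 0.0633), PRDM8 (-1.55 ± 0.105), ZBTB7C (-1.81 ± 0.104), ZFPM2 (-1.50 ± 0.113) and CREB3L3 (-1.02 ± 0.131) completed the named factors. Zinc finger genes gave 4 members (ZNF804A, ZNF860, ZNF699 and ZNF688) among 6 falls of 470 measured, against 514 falls of the 11886 genes.

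Metabolic enzymes, 19 members, had a median of -1.51 from control and 0.01 with the siRNA. ACSL3, which activates long-chain fatty acids, measured 9.99, 9.99 and 9.98 in control cells, 8.44, 8.43 and 8.40 in TLX+siCTL and 8.62, 8.45 and 8.28 with the siRNA against TLX. The control libraries of ACSL3 spanned 0.0133 log2 units, and the siRNA libraries enclosed the TLX+siCTL values. UGDH, which makes UDP-glucuronate for glycosaminoglycans, was at 9.01, 8.99 and 8.93 in control cells, 7.39, 7.44 and 7.33 in TLX+siCTL and 7.48, 7.48 and 7.31 with the siRNA against TLX, with a narrow siRNA interval from -0.08 to 0.16. KYNU, a hydrolase of the kynurenine pathway of tryptophan breakdown, stood at 8.31, 8.30 and 8.27 in control cells, 6.57, 6.51 and 6.35 in TLX+siCTL and 6.63, 6.51 and 6.32 with the siRNA against TLX. HKDC1, a hexokinase, differed by -1.71 ± 0.0638 and -0.11 ± 0.0638.

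AKR1C1, a reductase of steroids and aldehydes, was called higher with the siRNA: 8.40, 8.38 and 8.57 in control cells, 7.51, 7.45 and 7.31 in TLX+siCTL, with 7.68, 7.57 and 7.74 in TLX+siTLX. Its siRNA difference was 0.24 ± 0.0706, and reads can be shared with the near-identical AKR1C2, so it is uncertain. CSGALNACT2, which starts chondroitin sulphate chains, was called lower (-0.19 ± 0.0554): 8.15, 8.10 and 8.05 in control cells, 6.65, 6.61 and 6.52 in TLX+siCTL and 6.48, 6.43 and 6.30 with the siRNA against TLX. SULT1C2, a sulphotransferase, differed by -1.96 ± 0.0781 and 0.22 ± 0.0781, and GMPPA, a regulatory subunit in GDP-mannose synthesis, by -1.27 ± 0.0781 and -0.18 ± 0.0781, both without overlap of the TLX groups. TST and MPST, a pair of related sulphurtransferases, lie head to head on chromosome 22 and overlap; they differed by -1.25 ± 0.0677 and -1.17 ± 0.0817. The branching enzymes GCNT4 (-2.03 ± 0.127) and GCNT3 (-1.36 ± 0.118), carbonic anhydrase CA12 (-1.48 ± 0.0919), the oxysterol hydroxylase CYP39A1 (-1.63 ± 0.15) and the NAD-making NMNAT2 (-1.62 ± 0.101) were also members. SDR16C5, ACSS3, MOCS1 and GYG2 differed by -1.83, -1.20, -1.06 and -1.05. Lipid and sterol genes had 14 falls among 39 measured, against 514 among the 11886 genes. The 14 were 2 members, ACSL3 among them, 5 that were higher and 7 lower with the siRNA. The list medians were -0.78 from control and -0.16 with the siRNA.

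Transporters and channels were SLC7A2, which imports cationic amino acids (-1.52 ± 0.0724), SLC44A5 (-1.85 ± 0.177), the flippase ATP8B2 (-1.46 ± 0.0876), the potassium channel KCNK6 (-1.05 ± 0.0845) and the volume-regulated anion channel subunit LRRC8C (-1.08 ± 0.0651). They were 2 of 14 falls of 212 solute carriers, 1 of 5 among 50 ABC transporters and P-type ATPases and 1 of 7 among 53 ion channels. Among the 11886 genes 514 were falls. Among vesicle proteins, MCTP2 had the lowest difference: 3.46, 3.12 and 2.98 in the controls, 1.27, 1.03 and 0.13 in TLX+siCTL and 1.13, 0.56 and 1.24 with the siRNA against TLX. The TLX groups of MCTP2 overlapped widely. SYT1, the calcium sensor of exocytosis, had its 3 siRNA libraries above its 3 TLX+siCTL libraries (0.21 ± 0.0931) and was not called. TC2N (-2.31 ± 0.102) is uncertain, since both its rows carry reads and the row chosen is outside the primary annotation. CPD, a carboxypeptidase of the secretory pathway, measured 10.65, 10.58 and 10.61 in control cells, 9.60, 9.58 and 9.51 in TLX+siCTL and 9.77, 9.81 and 9.57 with the siRNA against TLX.

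The other 39 members were given no role. Of these, ANXA10, an annexin, was at 3.83, 3.84 and 3.91 in control cells, 1.85, 1.77 and 1.50 in TLX+siCTL, with 1.83, 1.75 and 1.77 in TLX+siTLX, differences of -2.16 ± 0.0972 from control and 0.08 ± 0.0972 with the siRNA. C6orf223 differed by -2.41 ± 0.193, PHLDA3, a p53-induced inhibitor of AKT, by -1.09 ± 0.0730, and RESF1 by -1.01 ± 0.0803 and -0.23 ± 0.0803. MSL3P1, a pseudogene, was called lower with the siRNA (-0.17 ± 0.0471), and as a copy of MSL3 its reads are uncertain. AL139011.2 overlaps DCAF8 and PEX19 on its own strand, ranged from -0.90 to 1.62 within TLX+siCTL, and was the only member not called against control cells. AL591806.3 overlaps F11R and TSTD1 and is uncertain for the same reason, as is ODF3B, which overlaps TYMP. In all, 20 members were overlapped by another measured gene, 5 of them on the same strand, and 10 had more than 1 row. The cell cycle list (35 measured) and the lists of the unfolded protein response (25) and of TGF-beta, Wnt and Notch targets (20) held no member.

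**Figure D5:**
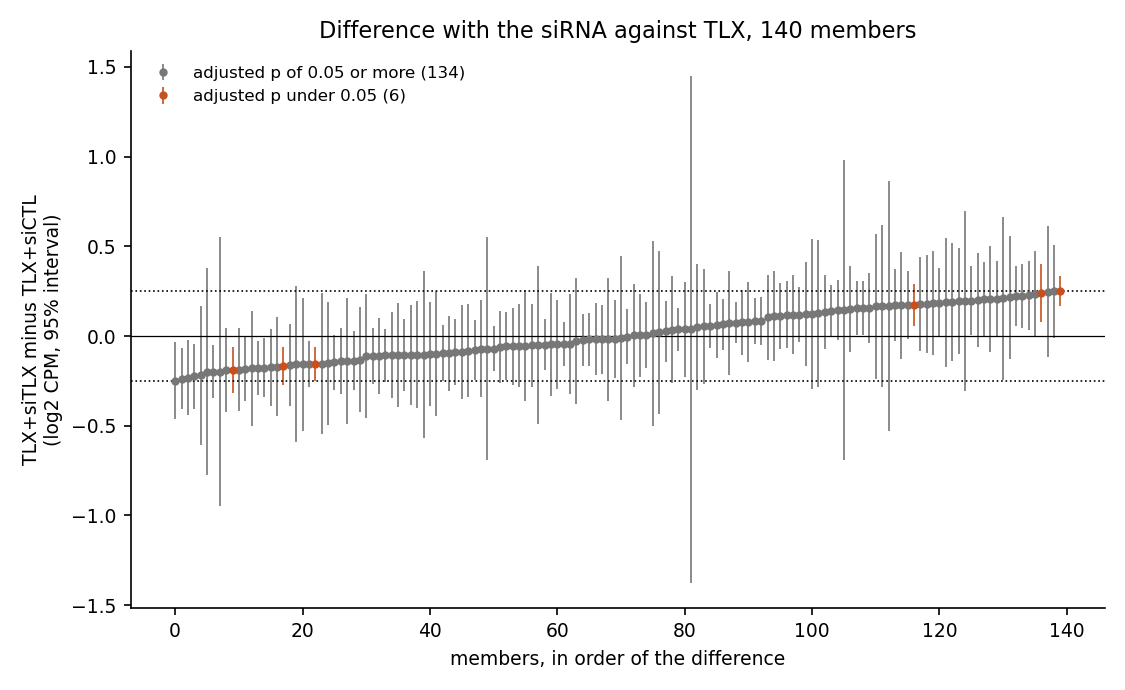
TLX+siTLX minus TLX+siCTL (log2 CPM) for the 140 members in ascending order, with moderated 95% intervals; orange, the 6 with an adjusted p under 0.05; dotted lines, the limits at -0.25 and 0.25. Most bars cross a dotted line, and the widest, AL139011.2, reaches beyond 1 in both directions.

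The limits cut through a continuous range. Just inside the siRNA limits were BHLHE40 at 0.249 and IL1R1 at -0.248, and just outside were MLPH at 0.253 and SCN9A at -0.257. At the limit on the fall, ADAM32 at -1.003 was inside and NOL4L at -0.995 outside. At the limit on the mean, VSIG1 at 1.03 was inside and SRRM3 at 0.991 outside. A further 207 genes with a mean under 1 met the other limits and are not members.

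Properties the limits did not use are given as descriptions. Within groups the members varied more than other genes: the median pooled SD was 0.129 against 0.0888 over the 11886 genes, and members were higher in each of 4 ranges of mean level (0.17 against 0.162 from 1 to 3, 0.118 against 0.098 from 3 to 5, 0.0999 against 0.074 from 5 to 7, and 0.0927 against 0.0635 above 7). By group the median SD of members was 0.0609 in CTL+siCTL, 0.117 in TLX+siCTL and 0.143 in TLX+siTLX, against 0.0613, 0.0642 and 0.0994 over all. The larger spread was thus in the TLX groups, where the members' level was by choice also lower. Their median level was 3.48 in both TLX groups, against 5.08 and 5.10 over all genes, and 4.86 against 5.09 in CTL+siCTL. SD was higher at lower levels, and the 4 ranges used the mean of the 9 libraries. Level within a group was therefore not matched, and its part in the spread was not tested. S6 was the lowest library of its group for 96 of the 140 members (68.6%, against 34.7% of the 11886 genes). The shares for S9 were 47.1% and 41.9%, and those for S3 were 45.7% and 39.9%. The part of S6 in the choice was not tested, and the members without it are counted in the closing section.

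By position, 138 members had GENCODE coordinates, and 135 were protein-coding. Chromosome 2 held 20 members (14.3%, against 6.69% of the 11886 genes), chromosome 12 held 14 (10% against 5.15%) and chromosome 4 held 12 (8.57% against 3.67%). Chromosome 1, with 16 members, was near its share (11.4% against 10.1%). Others lay below, among them chromosomes 9 (0.714% against 4.06%), 17 (2.86% against 5.9%) and 19 (3.57% against 7.21%). No chromosome was chosen beforehand. A total of 4 pairs were neighbours within 100 kb with no other measured coding gene between, among them UGDH and SMIM14 (chromosome 4, 18018 bases apart), ANTXR2 and PRDM8 (chromosome 4, 58424 bases), and the overlapping TST and MPST. UGDH and SMIM14 lie on the same strand, the others on opposite strands. The median gene span was 50.7 kb against 34.0 kb over all measured genes and 42.9 kb over the other falls.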

How the data were processed

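The values analysed were log2 CPM for 27548 Ensembl genes in 9 libraries, deposited by the authors; a further table deposited by the authors gives signed fold changes, p-values and false discovery rates for the 3 contrasts, and no source used here names the test behind those deposited p-values. The submitters' processing notes name GRCh38, edgeR, limma and kallisto 0.44.0 without saying what each was for; libraries were made with a stranded mRNA kit, per the labels' protocols, and no source used here says whether counting used the strand. The lowest value, -5.33, is what 0 reads give if 2 are added as a prior, so differences of genes with few reads are understated. Library sizes of 73.9 to 91.8 M reads were rebuilt from the log2 CPM of 1 read. Columns carry the group's name with a running number found in no label; 0 columns were left unmapped.

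Members were found with the limits given above on the deposited values, 1 row per symbol. Members, roles and the 16 gene lists (625 genes) were chosen with earlier results of these data known. Contrasts were fitted with limma 3.58.1 in R 4.3.3, in 1 fit of 9 libraries two-sided and with the prior variance following the mean level (intensity trend). The p-values were adjusted by Benjamini-Hochberg over 27548 rows, with a threshold of 0.05. The fit was also run on simulated data with independent noise and no shift shared by a library's genes. That run cannot show that the calls in these libraries are sound. Intervals are moderated 95% intervals. Falls are genes at least 1 log2 unit lower in TLX+siCTL than in CTL+siCTL. Named members were TRIML2, the 25 lowest differences, the 4 highest means, up to 4 per list and per symbol family, the 3 nearest each limit, the 3 with the widest spread and neighbours; other members named to describe a role were chosen after their values were seen. Coordinates are from GENCODE 29 (24790 identifiers found); promoters are from RefSeq. Some members and a marker are not reported here by name.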

Additional observations from a re-analysis of the deposited data

How the results depend on the processing

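The number of members was 140; it was 89 with a mean log2 CPM of 3 or more, 82 with a siRNA limit of 0.15, 203 with a limit of 0.35 and 163 with a mean of 0 or more. With library medians centred over all rows 112 genes met the limits, 78 of them members; with medians centred over genes with a mean of 1 or more, 140 (132 members); after quantile normalization, 138 (111); on a log2(CPM + 1) scale, 123 (113); and with group medians, 141 (117). Leaving out 1 library gave 132 to 153 genes, of which 112 (without S6) to 134 (without S1) were members; 122 were without S9, and 76 members met the limits without each of the 9 libraries in turn. The members' median difference from control moved from -1.38 to -1.24 on the log2(CPM + 1) scale, and their median siRNA difference from -0.01 to -0.16 with medians centred over all rows. Of the members, 6 were called in TLX+siTLX against TLX+siCTL; 24 were with medians centred over all rows, 1 without an intensity trend, 15 with only rows of mean 1 or more fitted, 3 with only the compared groups fitted, and 3 to 10 without 1 library. Centring over all rows shifts the siRNA difference of every row by the same -0.14. The cause of the changed counts was not tested further. Calls of members against control cells were 136 to 140 in each of these fits, and the difference from control stayed below 0 for the 76 members covered by the naming rule under every scaling and without each library. Their siRNA difference, near 0 by choice, changed sign under at least 1 of those settings in 42, none of them called. No paired analysis was possible because the columns carry running numbers that are in no label. Precision is limited by 3 libraries a group. The fewest reads of a member in any library were 40.1, in AL139011.2, and their part in its spread was not tested.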
